A study of Mus musculus with 6 samples.

Results

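Mitochondria keep their own small circular genome, and every protein that copies and transcribes it is encoded in the nucleus. The 10 genes described here are those of that machinery and of its nuclear regulators, chosen by symbol from the deposited count table: Polrmt, Tfam, Tfb1m, Tfb2m, Polg, Polg2, Ssbp1, Nrf1, Gabpa and Gabpb1. All 10 were found among 45808 gene lines, and all 10 were among the 14459 genes with enough counts to be tested. The mitochondrial RNA polymerase POLRMT transcribes the genome with the help of the packaging factor TFAM, which bends promoter DNA, and of TFB2M, which melts it. The polymerase gamma holoenzyme, made of the catalytic subunit POLG and the accessory subunit POLG2, copies the DNA together with the single-strand binding protein SSBP1. NRF1 and GABP are nuclear transcription factors known for activating genes of this machinery and of the respiratory chain, which is abundant in heat-producing fat cells.

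The RNA came from wild-type (WT) mice, males 8 weeks old, and from the stromal-vascular fraction of inguinal white fat, the cells that stay when mature fat cells are removed. These were cultured and turned into beige adipocytes, fat cells of white depots that can produce heat. Libraries of day 0 came from confluent cells before induction. Those of day 2 followed 2 days with IBMX (0.5 mM), dexamethasone (5 µM), indomethacin (125 µM), insulin (850 nM), T3 (1 nM) and rosiglitazone (1 µM), and those of day 6 a further period with insulin, T3 and rosiglitazone alone. Each day had 2 libraries, numbered 76 and 77, and n = 2 libraries per day holds throughout. The labels call the libraries of a day replicates without saying whether they are separate mice or cultures, so the p-values rest on a spread that may be technical. Libraries held 22522221 to 29458374 counts in genes. Reads carried no molecular identifiers, so counting intervals and floors cover counting error only.

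The culture was a mixture, and several marker lists moved with the day. Of all genes tested, 33.6% were called higher and 33.6% lower at day 2 than at day 0. At day 6 against day 0 these shares were 35.9% and 35.1%, and at day 6 against day 2 38.2% and 27.5%. Counts near these shares, such as those of macrophage and mural markers at day 6 and of Schwann markers, are not read as shifts. Of 7 adipocyte markers, 7 were called higher at day 2 and at day 6 than at day 0, with summed levels of 1034 to 1202 CPM, the count scaled to a fixed library size with TMM factors at day 0, 9567 to 10372 CPM at day 2 and 39543 to 46864 CPM at day 6. Of 7 progenitor markers, 5 were lower at day 2 and 6 at day 6, with sums of 1953 to 2002, 1206 to 1395 and 742 to 1106 CPM in the order of the days. Among 14 cell cycle genes (S and G2/M phase), 14 were higher at day 2 than at day 0 and 14 lower at day 6 than at day 2, with sums of 467 to 489, 1658 to 1758 and 218 to 259 CPM. Of 8 macrophage markers, 1 was lower at day 2 and 4 were higher at day 6 than at day 0, with sums of 40.0 to 47.8, 28.5 to 52.4 and 48.6 to 114 CPM. Endothelial markers, 5 of 5 tested lower at day 2 and at day 6, had sums of 29.7 to 33.5, 6.29 to 6.33 and 11.97 to 15.8 CPM, and mural markers, 4 of 6 lower at day 2, and 3 higher and 3 lower at day 6 than at day 0, sums of 128 to 144, 49.3 to 53.9 and 217 to 224 CPM. Schwann (1 of 3 tested lower at both later days), mesothelial (1 of 1 lower at both) and skeletal muscle markers (2 of 2 lower at both) summed to at most 37.9 CPM in any library, and the muscle precursor genes Myf5 and Pax7 were at 0 in all 6. The part of these shifts in the results below was not tested, and in bulk RNA fewer cells of a type and less RNA per cell cannot be told apart.

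In GRCm38 with the GENCODE M21 annotation, the transcription genes lie on chromosomes 10, 17 and 1. Polrmt spans 79736123 to 79746581 and Tfam 71225464 to 71238280 on the minus strand of chromosome 10, Tfb1m 3519256 to 3557781 on the minus strand of chromosome 17, and Tfb2m 179528055 to 179546267 on the minus strand of chromosome 1. Polg spans 79446231 to 79466362 on chromosome 7 (minus), Polg2 106768253 to 106779537 on chromosome 11 (minus) and Ssbp1 40471352 to 40484700 on chromosome 6 (plus). Nrf1 spans 30047988 to 30153458 on chromosome 6 (plus), Gabpa 84834925 to 84863779 on chromosome 16 (plus) and Gabpb1 126627442 to 126676337 on chromosome 2 (minus). Exons of other genes overlap 8.57% of the exonic bases of Polg (Fanci, opposite strand), 6.98% of those of Gabpa (Atp5j, opposite strand), 3.93% of Tfb1m, 3.03% of Polg2 and 0.181% of Gabpb1, and none of the other 5 genes. Tfb2m is the uncertain member: 31.9% of its 50-base words also occur in the transcript of Gm1818, against at most 6.42% for any other member. Gm1818 itself had only 5 to 21 counts per library, beside 523 to 1265 for Tfb2m, and its part in the Tfb2m values was not tested.

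The promoters of the 10 genes were searched for short motifs, and any tie between matches and changes in level was not tested. RefSeq windows (GRCm38.p6) run from 250 bases before to 50 after each annotated start, and the 10 genes have 12 of them. The search used both strands and the letters CCGGAAG for the ETS family, to which GABP alpha belongs, GCATGCGC for an NRF1 half-site, and AAGATGGC for YY1. The ETS letters were found in 6 of the 10 genes (Tfam, Polg, Polg2, Polrmt, Ssbp1 and Gabpa), against 9.93% of 27025 genes with a window. The NRF1 letters were found in Polrmt and Tfb2m, against 3.05% of genes, and the YY1 letters in Gabpa alone of the 10, against 3.19%. These shares cover all genes with a window, neither limited to genes with enough counts to be tested nor matched for G and C. No matches overlapped. No windows of Tfb1m, Nrf1 or Gabpb1 held any of these letters, which says nothing about binding there. The 30 bases around each ETS or NRF1 match are shown because they are the matches found in 7 of the 10 genes. They read 5′ to 3′ along the gene, with the match in capitals, so a match on the other strand appears as CTTCCGG or GCGCATGC.

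Tfam (chr10:71238074-71238103, minus): tcctgccgcggaCCGGAAGtccgggcttcc
Polg (chr7:79466294-79466323, minus): ggaggacctcacCCGGAAGtccctctgcac
Polg2 (chr11:106779549-106779578, minus): gcgggtgacgctCTTCCGGgggcgtggtct
Polrmt, ETS (chr10:79746607-79746636, minus): accctaagagcgCTTCCGGcagtcgcagaa
Polrmt, NRF1 (chr10:79746696-79746725, minus): agagtatttctGCGCATGCtctcttgccgc
Ssbp1 (chr6:40471409-40471438, plus): gggctccgtgcgCCGGAAGcgagccgctgg
Gabpa (chr16:84835019-84835048, plus): ggagggtaagtgCTTCCGGgtccctcagct
Tfb2m, NRF1 (chr1:179546245-179546274, minus): ctaggtcgttcGCATGCGCcattcgtaatg

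In 5 of the 6 genes the ETS match began between 47 and 29 bases before the annotated start, and in Gabpa 93 bases before it. In GENCODE M21, whose transcripts can start further upstream, the ETS sites of Tfam, Polg and Ssbp1 lie in the first exon of the gene, and that of Gabpa in the first exon of the divergent gene Atp5j and partly in that of Gabpa. The ETS sites of Polg2 and Polrmt lie outside exons. The NRF1 match of Polrmt lay 133 to 126 bases before the start, and that of Tfb2m 14 to 21 bases after it. Polrmt was the only one of the 10 whose windows held both the ETS and the NRF1 letters. Its 200 bases before the start, which overlap no annotated exon, are given for that reason, with both matches in capitals.

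Polrmt (chr10:79746582-79746781, minus): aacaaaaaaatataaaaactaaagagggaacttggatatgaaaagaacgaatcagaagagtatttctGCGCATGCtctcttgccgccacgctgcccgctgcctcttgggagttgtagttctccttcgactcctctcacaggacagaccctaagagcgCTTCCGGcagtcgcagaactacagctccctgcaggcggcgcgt

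G and C made up 46.3% to 77% of the 12 windows, against a median of 52.7% over all 32851 windows. The window of Polrmt, at 52.0%, and 1 of the windows of Nrf1, at 46.3%, lay below that median.

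**Figure D1:**
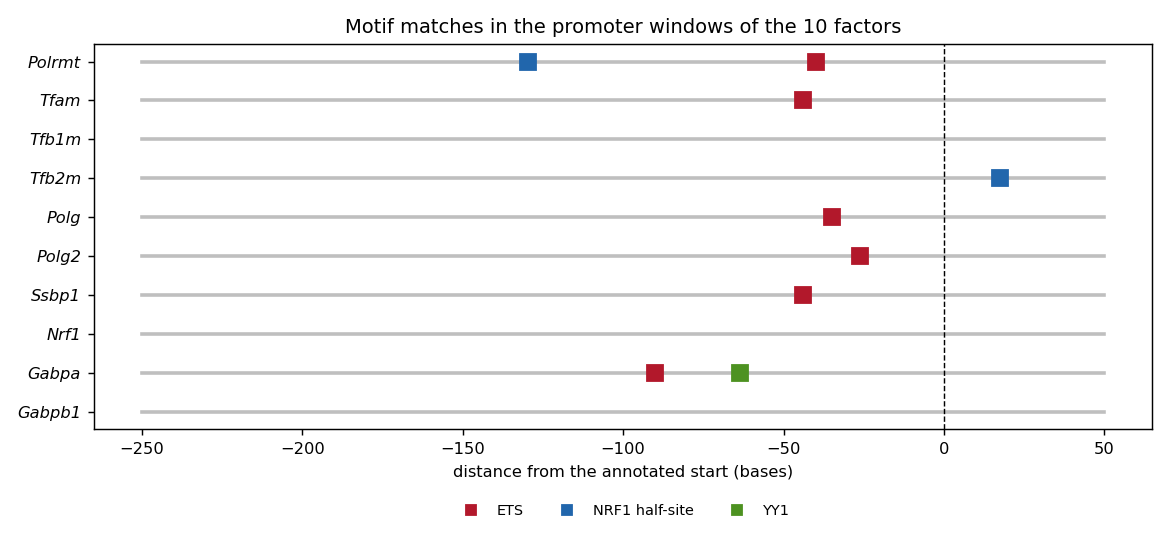
Positions of motif matches in the RefSeq promoter windows of the 10 genes. The x axis is the distance in bases from the annotated start, grey lines are the windows, and squares are matches to the ETS, NRF1 half-site or YY1 letters. The ETS matches of 5 genes lie within 47 bases before the start.

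Of the 7 machinery genes, 6 (all but Polg2) were higher at both later days than at day 0, whereas the regulators Nrf1 and Gabpb1 were lowest at day 6. Against day 0, day 2 had 6 of the 10 genes higher and 0 lower by edgeR's quasi-likelihood test at an adjusted p below 0.05. None was lower at an unadjusted p under 0.05 either, and DESeq2 called 0 lower. Across all genes tested, 33.6% were called higher and 33.6% lower in that comparison. Day 6 against day 0 had 7 higher and 2 lower, over a background of 35.9% higher and 35.1% lower, and day 6 against day 2 had 2 higher and 2 lower, over 38.2% higher and 27.5% lower. The comparisons share libraries, so they are not independent. The median log2 change of the 10 genes was 0.64 at day 2 and 0.63 at day 6 against day 0, beside 0.0042 and -0.012 over all genes tested. For day 6 against day 2 the median was 0.043 beside 0.12. A joint test found a difference between any of the days for 9 of the 10, all but Polg2, where 84.8% of all genes tested passed. None of the 10 was called both higher at day 2 than at day 0 and lower at day 6 than at day 2, a course that 15.1% of all genes tested followed.

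The scaling matters for the later comparisons. With library totals in place of TMM factors, the log2 changes of all genes tested shifted in their median by 0.11 for day 2 against day 0, by -0.25 for day 6 against day 0 and by -0.36 for day 6 against day 2. The calls over all genes then split into 3967 higher and 6476 lower for day 6 against day 0, where TMM gave 5184 and 5069, and into 3650 and 6182 for day 6 against day 2, where TMM gave 5520 and 3981. Changes below are relative to the TMM scale.

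**Figure D2:**
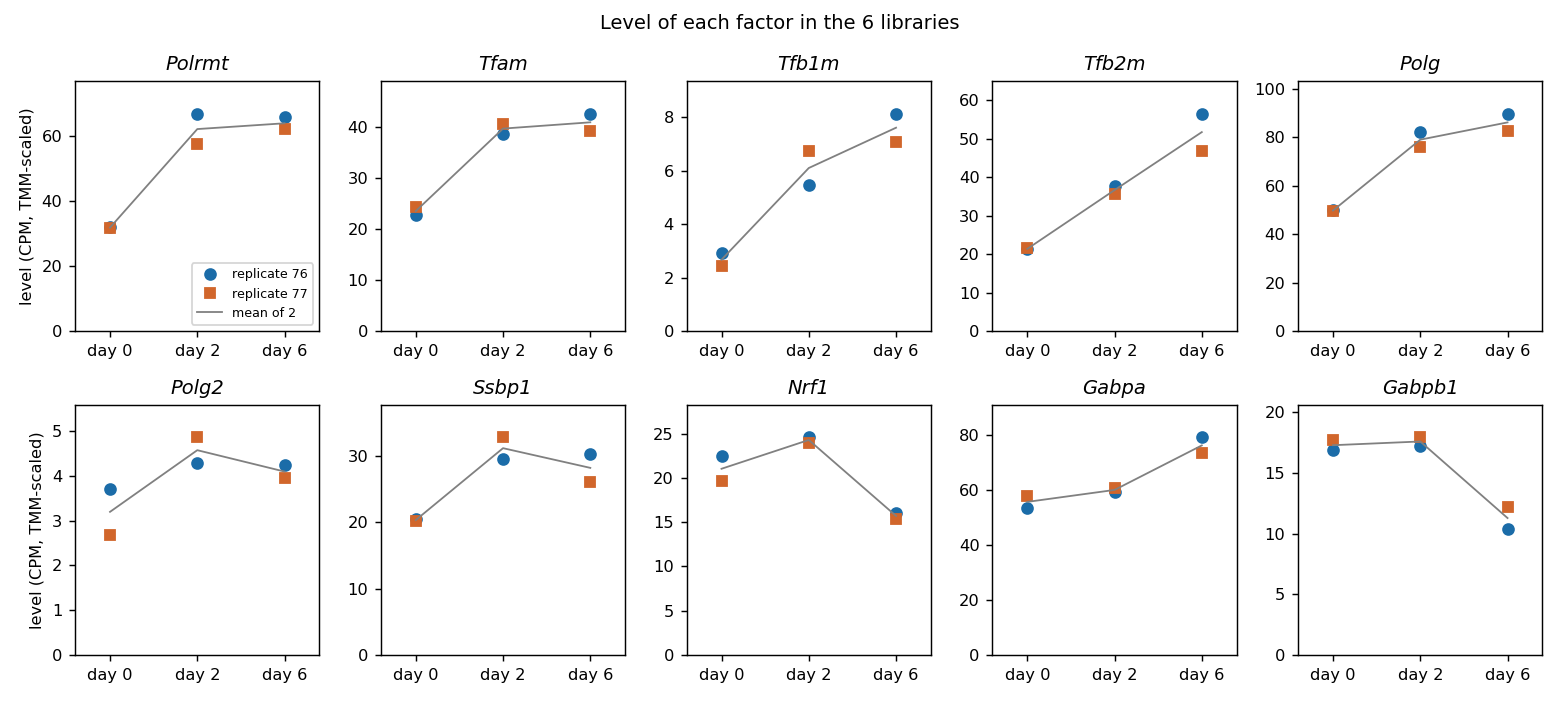
Level of each of the 10 genes in every library, in CPM with TMM scaling, by day. Circles are replicate 76, squares replicate 77 and the grey line joins the means of 2. Polrmt, Tfam and Polg stand higher at days 2 and 6 than at day 0 without overlap, and Nrf1 and Gabpb1 are lowest at day 6.

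Polrmt, the RNA polymerase of mitochondria, gave 32.0 and 31.8 CPM at day 0, 67.0 and 57.5 CPM at day 2, and 65.9 and 62.2 CPM at day 6 (replicates 76 and 77 in that order, here and below). Both later days lay far above day 0, and they overlapped each other. Polrmt rose 1.95-fold by day 2 (log2 change 0.96, SE 0.087, adjusted p = 2.66e-05 by edgeR) and stood 2.01-fold higher at day 6 than at day 0 (SE 0.088, adjusted p = 1.62e-05 by edgeR). The change between day 6 and day 2 was not called, with a log2 change of 0.041 and an SE of 0.085.

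Tfam, which packages mitochondrial DNA and is needed for its transcription, gave 22.8 and 24.2 CPM at day 0, 38.6 and 40.6 CPM at day 2, and 42.5 and 39.2 CPM at day 6. The day 2 and day 6 libraries overlapped, and none of them reached down to day 0. Tfam rose 1.69-fold by day 2 (log2 change 0.75, SE 0.081, adjusted p = 6.52e-05 by edgeR) and was 1.74-fold higher at day 6 than at day 0 (adjusted p = 3.92e-05 by edgeR). With library totals as the scaling, Tfam, Polg and Polrmt were called lower at day 6 than at day 2, with log2 changes of -0.31, -0.23 and -0.32. With TMM these were 0.045, 0.12 and 0.041, and not called. Library totals also made Ssbp1 (-0.50) and Polg2 (-0.52) lower in that comparison, where TMM gave -0.14 and -0.16, not called.

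TFB1M and TFB2M are related proteins with different work: TFB2M starts transcription, and TFB1M methylates the small ribosomal RNA of mitochondria. Tfb1m gave 2.91 and 2.43 CPM at day 0, 5.47 and 6.73 CPM at day 2, and 8.13 and 7.08 CPM at day 6, and its libraries did not overlap between any days. Its 59 to 187 counts per library made it one of the scarcest of the 10. Tfb1m had the largest fitted folds of the group against day 0, 2.27-fold at day 2 (SE 0.19 on the log2 scale, adjusted p = 0.000662 by edgeR) and 2.83-fold at day 6 (SE 0.19, adjusted p = 0.000143 by edgeR). The step between day 6 and day 2 was not called (log2 change 0.32, SE 0.17).

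Tfb2m gave 21.2 and 21.5 CPM at day 0, 37.6 and 35.7 CPM at day 2, and 56.5 and 46.9 CPM at day 6. Each day lay above the one before without overlap. Tfb2m rose 1.71-fold by day 2 (adjusted p = 0.000188 by edgeR), and was 2.42-fold higher at day 6 than at day 0 (adjusted p = 8.50e-06 by edgeR). It was 1.41-fold higher at day 6 than at day 2 (log2 change 0.50, SE 0.097, adjusted p = 0.00203 by edgeR). That last call was lost with library totals as the scaling (log2 change 0.14, adjusted p = 0.203 by edgeR), and p ran between 2.18e-06 and 0.203 over 11 alternatives. Per kb of exon, Tfb2m stood 9.38 and 11.4 times above Tfb1m at day 0, 8.85 and 6.83 times at day 2, and 8.95 and 8.53 times at day 6, so the later days overlapped each other and stood below day 0.

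Among the replication genes, Polg, the catalytic subunit of the DNA polymerase, gave 49.97 and 49.7 CPM at day 0, 82.2 and 75.9 CPM at day 2, and 89.8 and 82.6 CPM at day 6, all later libraries above day 0. Polg rose 1.59-fold by day 2 (log2 change 0.67, SE 0.074, adjusted p = 8.06e-05 by edgeR) and was 1.73-fold higher at day 6 than at day 0 (adjusted p = 2.43e-05 by edgeR). Fanci, the DNA repair gene whose exons overlap Polg on the other strand, was 4.88-fold higher at day 2 than at day 0 and fell to 0.983 and 1.20 CPM at day 6, against 13.1 and 12.3 CPM at day 2, and its part in the Polg values was not tested.

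Polg2, the accessory subunit that clamps the polymerase to DNA, gave 3.71 and 2.68 CPM at day 0, 4.28 and 4.86 CPM at day 2, and 4.24 and 3.94 CPM at day 6. It rested on 65 to 135 counts per library. The day 0 libraries lay lowest, and no comparison was called: the log2 change was 0.51 (SE 0.21, adjusted p = 0.0573 by edgeR) at day 2 and 0.35 (SE 0.21, adjusted p = 0.174 by edgeR) at day 6 against day 0. The day 2 value sat at the threshold, and 6 of 11 alternatives called it higher, with adjusted p from 0.0253 to 0.213 over all 11 by edgeR and DESeq2. Per kb of exon, the ratio of Polg to Polg2 was 5.46 and 7.52 in the libraries of day 0, 7.78 and 6.34 in those of day 2, and 8.58 and 8.50 in those of day 6. Days 0 and 2 overlapped in this ratio, and day 6 lay above both, which was not tested.

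Ssbp1, which coats single-stranded mitochondrial DNA during copying, gave 20.6 and 20.1 CPM at day 0, 29.6 and 32.8 CPM at day 2, and 30.3 and 26.1 CPM at day 6. Its later days overlapped each other and not day 0. Ssbp1 rose 1.53-fold by day 2 (log2 change 0.62, SE 0.099, adjusted p = 0.000690 by edgeR), and was 1.39-fold higher at day 6 than at day 0 (SE 0.10, adjusted p = 0.00299 by edgeR). With library totals the call at day 6 was lost (log2 change 0.22, adjusted p = 0.0573 by edgeR), and p ran between 3.57e-05 and 0.0573.

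**Figure D3:**
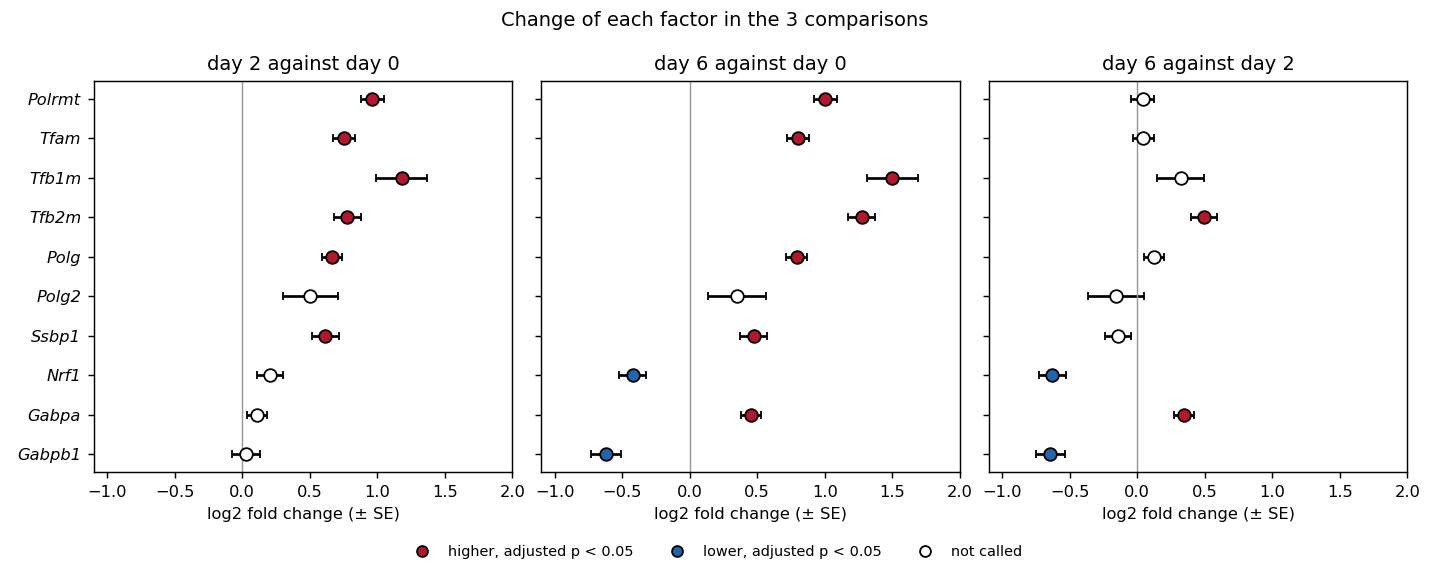
Log2 fold changes of the 10 genes in the 3 comparisons, from the edgeR fit, with bars of 1 SE. Red points are called higher and blue points lower at an adjusted p below 0.05, and white points are not called. Nrf1 and Gabpb1 are blue in both comparisons of day 6, and Tfb1m is farthest right in both comparisons with day 0.

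The nuclear regulators took other courses. Nrf1, the transcription factor nuclear respiratory factor 1, gave 22.45 and 19.6 CPM at day 0, 24.6 and 24.0 CPM at day 2, and 15.99 and 15.4 CPM at day 6. Day 6 lay below both earlier days without overlap. Nrf1 was 1.34-fold lower at day 6 than at day 0 (log2 change -0.42, SE 0.099, adjusted p = 0.00472 by edgeR) and 1.55-fold lower than at day 2 (log2 change -0.63, SE 0.098, adjusted p = 0.000571 by edgeR). Both calls held in all 11 alternatives, with log2 changes of -0.67 to -0.32 against day 0 and -0.99 to -0.60 against day 2. The call against day 0 came close to the threshold at its weakest. Day 2 against day 0 was not called (log2 change 0.21, SE 0.094, adjusted p = 0.0842 by edgeR). It passed with the size factors of DESeq2 in edgeR (adjusted p = 0.0441 by edgeR) and with library totals (adjusted p = 0.0157 by edgeR), with p between 0.0157 and 0.227 over the alternatives.

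GABP binds DNA through its alpha subunit and activates transcription through its beta subunit. Gabpa, the alpha subunit, gave 53.6 and 57.8 CPM at day 0, 59.3 and 60.7 CPM at day 2, and 79.1 and 73.3 CPM at day 6. Day 6 stood above the other days without overlap. Gabpa was 1.37-fold higher at day 6 than at day 0 (log2 change 0.45, SE 0.073, adjusted p = 0.000585 by edgeR) and 1.27-fold higher than at day 2 (log2 change 0.35, SE 0.072, adjusted p = 0.00309 by edgeR). The call against day 2 was lost with library totals, which gave a log2 change of -0.014 (adjusted p = 0.868 by edgeR), and without replicate 77 of day 0 (log2 change 0.21, adjusted p = 0.0559 by edgeR), with p between 0.000616 and 0.868 over the alternatives. For day 2 against day 0 the log2 change was 0.11 and not called (adjusted p = 0.213 by edgeR). It was called with library totals (log2 change 0.22, adjusted p = 0.0247 by edgeR) and without replicate 77 of day 0 (log2 change 0.31, adjusted p = 0.0304 by edgeR), with p between 0.0247 and 0.660 over the alternatives. Without replicate 77 of day 0 the median log2 change of all genes tested moved as well. The shift was -0.14 for day 6 against day 2, which holds no day 0 library, and 0.14 for day 2 against day 0. Atp5j, the ATP synthase gene whose exons overlap Gabpa on the other strand, was 2.84-fold higher at day 6 than at day 0, and its part in the Gabpa values was not tested.

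Gabpb1, a beta subunit, gave 16.9 and 17.7 CPM at day 0, 17.3 and 17.9 CPM at day 2, and 10.4 and 12.2 CPM at day 6. Days 0 and 2 overlapped, and day 6 lay below both. Gabpb1 was 1.53-fold lower at day 6 than at day 0 (log2 change -0.62, SE 0.11, adjusted p = 0.00116 by edgeR) and 1.56-fold lower than at day 2 (log2 change -0.64, SE 0.11, adjusted p = 0.00103 by edgeR), in all 11 alternatives. Its paralog Gabpb2, another beta subunit, gave 38.9 and 35.8 CPM at day 0, 34.8 and 38.8 CPM at day 2, and 40.5 and 39.6 CPM at day 6, and was called in no comparison. Per kb of exon, the ratio of Gabpa to Gabpb1 was 4.32 and 4.44 in the libraries of day 0, 4.68 and 4.61 in those of day 2, and 10.4 and 8.17 in those of day 6. The 2 day 6 libraries stood apart from the other 4 in this ratio, which was not tested.

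**Figure D4:**
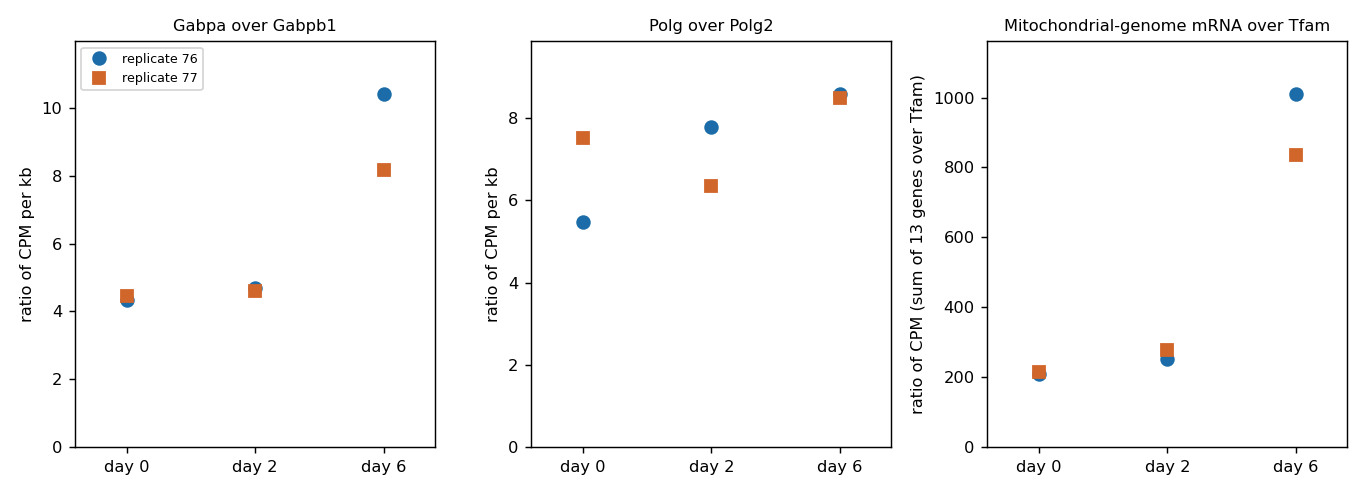
Ratios within each library by day: Gabpa over Gabpb1 and Polg over Polg2 in CPM per kb of exon, and the summed CPM of the 13 protein genes of the mitochondrial genome over the CPM of Tfam. Circles are replicate 76 and squares replicate 77. Each panel shows day 6 apart from days 0 and 2, with 10.4 and 8.17 for Gabpa over Gabpb1.

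Levels were compared between genes per kb of exon length in GENCODE M21, as CPM per kb. That length joins the exons of all annotated transcripts of a gene, such as 8360 bases for Ssbp1 and 4438 for Tfam. The transcripts present can be shorter, so the order between genes depends on this choice of length. The SDs and overlaps given here do not cover that error, and the ratios per kb above share it. At day 0 the order by mean was Gabpa (9.79 ± 0.52, SD), Tfb2m (7.63 ± 0.079), Polrmt (6.81 ± 0.023), Tfam (5.29 ± 0.23), Polg (4.64 ± 0.020), Ssbp1 (2.43 ± 0.036), Gabpb1 (2.23 ± 0.075), Nrf1 (2.05 ± 0.20), Tfb1m (0.740 ± 0.095) and Polg2 (0.733 ± 0.17). The libraries of Gabpb1 and Nrf1 overlapped, as did those of Tfb1m and Polg2, and the other neighbours in this order did not. At day 2 Polrmt (13.3 ± 1.4) and Tfb2m (13.1 ± 0.49) led and overlapped each other, with Gabpa next at 10.6 ± 0.18. At day 6 Tfb2m led (18.4 ± 2.4), ahead of Polrmt (13.7 ± 0.56) and Gabpa (13.4 ± 0.73), which overlapped. Polg2 was lowest on all 3 days, at 1.05 ± 0.093 on day 2 and 0.939 ± 0.049 on day 6, and the highest mean exceeded the lowest 13.3-fold, 12.7-fold and 19.6-fold in the order of the days.

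POLRMT, with TFAM and TFB2M, transcribes the mitochondrial genome. Of its 13 protein genes 12 could be tested, and 10 were higher at day 2 than at day 0, 12 at day 6 than at day 0 and 12 at day 6 than at day 2. In each comparison 0 were lower by edgeR, 0 at an unadjusted p under 0.05 and 0 by DESeq2. Of all genes tested, 33.6%, 35.9% and 38.2% were higher and 33.6%, 35.1% and 27.5% lower in these comparisons. The median log2 changes of the 12 genes were 1.14, 2.79 and 1.82. The genes not called at day 2 were mt-Co2 (log2 change 0.31) and mt-Co3 (0.46), both of complex IV. Summed over the 13 genes, the level was 4751 and 5201 CPM at day 0, 9765 and 11260 CPM at day 2, and 42932 and 32707 CPM at day 6. Relative to Tfam in the same library that is 209 and 215 for day 0, 253 and 278 for day 2, and 1009 and 835 for day 6, with no overlap between days. For single genes, mt-Nd1, a complex I subunit, was 2.91-fold higher at day 2 and 13.2-fold higher at day 6 than at day 0, and mt-Nd2, another, 3.43-fold and 14.9-fold. The only protein gene of the light strand, mt-Nd6, was 2.10-fold and 5.74-fold higher. The strand setting of the counts is not known, so reads of either strand may enter the mt-Nd6 value. Between the later days, mt-Nd4, also of complex I, was 3.46-fold higher at day 6 than at day 2. The ribosomal RNA genes mt-Rnr1 and mt-Rnr2 stood 15.3-fold and 21.3-fold higher at day 6 than at day 0. These counts are partial. The sum and its ratio to Tfam rest on a few genes: mt-Co1, of complex IV, alone had 60555 to 389092 counts per library, whereas mt-Atp6, mt-Atp8, mt-Co2 and mt-Co3 had 15 to 348. The gene mt-Nd4l had 0 counts in all 6 libraries, which for counting error alone allows up to 0.0994 to 0.150 CPM (3 counts). Reads lost in alignment or in assignment to genes are outside that floor, so its RNA level is not bounded by it. The share of alignments set aside as not unique was 4.16% to 4.42% at day 0, 6.21% to 6.65% at day 2 and 7.50% to 9.05% at day 6. Capture on oligo-dT also samples only the RNA with a poly(A) stretch.

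Most genes of mitochondrial RNA elongation, processing and decay rose. All 29 on the list were tested. By day 2, 24 were higher and 1 lower. At day 6 26 were higher than at day 0 and 0 lower, also 0 at an unadjusted p under 0.05 and 0 by DESeq2. Of all genes tested, 33.6% were higher and 33.6% lower at day 2, and 35.9% and 35.1% at day 6 against day 0. Median log2 changes of the list were 0.80 and 1.34. At day 6 against day 2, 20 were higher and 1 lower, with a median of 0.55, over a background of 38.2% higher and 27.5% lower. With library totals 12 of the 29 were higher and 4 lower in that comparison. Mrpl12, a mitochondrial ribosomal protein that also binds POLRMT in human cells, was 3.53-fold higher at day 2 and 8.25-fold higher at day 6 than at day 0. Elac2 and Trmt10c, which act in the release of transfer RNAs from the primary transcripts, rose 2.88-fold and 2.74-fold by day 2. Tbrg4 (Fastkd4), which stabilises mitochondrial messengers, was 4.44-fold higher at day 6 than at day 0, and Ptcd2, which works in mitochondrial RNA maturation, 4.49-fold. Mterf2, of the transcription termination factor family, and Hsd17b10, a subunit of mitochondrial RNase P, were 3.90-fold and 2.75-fold higher at day 6 than at day 2. The members that fell were Rexo2, an exonuclease of short RNAs (log2 change -0.23 at day 2 against day 0, adjusted p = 0.0183 by edgeR), and Pde12, which trims poly(A) tails (log2 change -0.26 at day 6 against day 2, adjusted p = 0.0186 by edgeR). The count of lower genes became 0 at day 2 against day 0 without replicate 76 or 77 of day 2 or replicate 77 of day 0, with DESeq2 and with library totals. At day 6 against day 2 it became 0 without replicate 76 or 77 of day 2.

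Of 18 other genes of mitochondrial DNA upkeep, all tested, 9 were higher and 3 lower at day 2 than at day 0, 11 higher and 4 lower at day 6 than at day 0, and 10 higher and 6 lower at day 6 than at day 2. Calls in both directions are also what all genes tested show, with 33.6%, 35.9% and 38.2% higher and 33.6%, 35.1% and 27.5% lower in these comparisons. The list's medians were 0.26, 0.37 and 0.39 on the log2 scale. Atad3a, a membrane ATPase tied to mitochondrial nucleoids, rose 3.61-fold by day 2 and was 4.80-fold higher at day 6 than at day 0. The replicative helicase Twinkle, listed under its older symbol Peo1, was 1.96-fold higher at day 2 than at day 0. It was lower at day 6 than at day 2 (log2 change -0.40, adjusted p = 0.00364 by edgeR). Mgme1, a nuclease that trims DNA ends in mitochondria, and Slc25a33, a pyrimidine nucleotide carrier, were 2.34-fold and 3.51-fold higher at day 6 than at day 0. Dna2, a nuclease and helicase that also serves nuclear replication, gave 1.89 and 1.61 CPM at day 0, 9.38 and 8.49 CPM at day 2, and 1.52 and 1.496 CPM at day 6. It moved beside the S and G2/M phase genes, whose part in its course was not tested.

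Among genes of nucleotide supply, Tk2, the mitochondrial thymidine kinase, fell by 0.59 on the log2 scale by day 2 (adjusted p = 0.000621 by edgeR) and was 1.93-fold higher at day 6 than at day 2. Rrm2b, the ribonucleotide reductase subunit of cells that do not divide, and Slc25a36, a pyrimidine nucleotide carrier, were 1.68-fold and 1.29-fold higher at day 6 than at day 2. Lower at day 6 than at day 0 were Rnaseh1, which removes RNA from RNA-DNA hybrids (log2 change -0.47), the nuclease Exog (-0.40) and the ligase Lig3 (-0.24). Lig3 and Primpol, a primase and polymerase, were also lower at day 2 than at day 0, with log2 changes of -0.24 and -0.43. The 3 calls lower at day 2 fell to 1 with library totals, with DESeq2 or when any 1 of the 4 libraries compared was left out. The 4 lower at day 6 than at day 0 fell to 2 without replicate 76 of day 0, and to 1 without replicate 77 of day 0 or replicate 76 of day 6. With library totals, 6 were higher at day 6 than at day 0 and 2 at day 6 than at day 2.

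**Figure D5:**
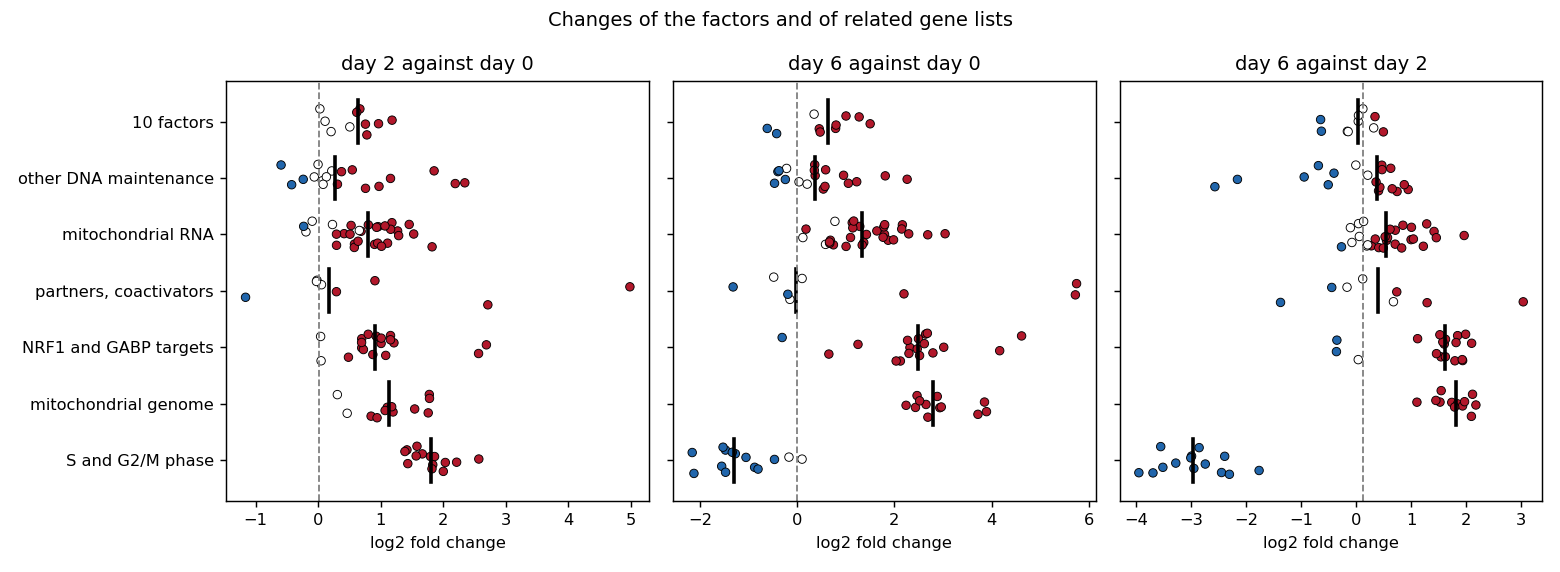
Log2 fold changes of the 10 factors and of 6 related gene lists in the 3 comparisons. Each point is a tested gene (red higher, blue lower, white not called), black bars are list medians, and the dashed line is the median of all genes tested. The mitochondrial genome genes lie farther right at day 6 against day 0 (median 2.79) than the 10 factors (median 0.63), and the S and G2/M phase genes lie right of 0 at day 2 and left of it at day 6 against day 2.

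Among the coactivators and partners of the nuclear factors, Ppargc1a, the coactivator PGC-1 alpha of NRF1 and of estrogen-related receptors, gave 0.894 and 0.700 CPM at day 0, 5.20 and 5.43 CPM at day 2, and 47.7 and 39.6 CPM at day 6. Its relative Ppargc1b gave 0.861 and 0.906 CPM at day 0, 31.2 and 24.9 CPM at day 2, and 46.8 and 47.0 CPM at day 6. Day 6 stood far above day 0 for both, by 53.9-fold and 52.9-fold. Pprc1, the third member of this family, took the opposite course: 56.96 and 52.2 CPM at day 0, 57.5 and 55.7 CPM at day 2, and 18.4 and 25.5 CPM at day 6. Pprc1 was lower at day 6 than at day 0 (log2 change -1.32, adjusted p = 3.94e-05 by edgeR) and than at day 2 (log2 change -1.37, adjusted p = 3.76e-05 by edgeR).

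Esrra, an orphan receptor that works with PGC-1, was 1.87-fold higher at day 2 and 4.59-fold higher at day 6 than at day 0. Hcfc1, a cofactor of GABP, rose 1.22-fold by day 2 and was lower at day 6 than at day 2 (log2 change -0.44, adjusted p = 0.000856 by edgeR). Yy1, a further regulator of mitochondrial genes, was lower at day 6 than at day 0 (log2 change -0.19, adjusted p = 0.0283 by edgeR). Perm1, a PGC-1 target in muscle, had at most 1.66 CPM and was lower at day 2 than at day 0 (log2 change -1.16, adjusted p = 0.0141 by edgeR). Of the 8 genes, 4 were thus higher and 1 lower at day 2 than at day 0, 3 higher and 2 lower at day 6 than at day 0, and 3 higher and 2 lower at day 6 than at day 2. Beside the shares of all genes tested given above, the counts at day 6 lie near the background, and nothing is read from them for the list. The 1 lower at day 2 became 0 without replicate 76 of day 0 or of day 2. The 2 lower at day 6 than at day 0 became 1 without replicate 76 or 77 of day 0, replicate 76 or 77 of day 2, or replicate 77 of day 6.

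Classical NRF1 and GABP targets, a list from promoter studies in mammals, mostly stood higher at day 6. On that day Nrf1 and Gabpb1 were lower than at both earlier days, and Gabpa was higher than at both on the TMM scale. The other beta subunit gene, Gabpb2, was called in no comparison. Any tie between the levels of these regulators and those of the targets was not tested. Of 18 targets, 16 were higher at day 2 than at day 0 and 0 lower, also 0 at an unadjusted p under 0.05 and 0 by DESeq2. At day 6, 17 were higher and 1 lower than at day 0, and 15 higher and 2 lower than at day 2. Over all genes tested the shares were 33.6%, 35.9% and 38.2% higher and 33.6%, 35.1% and 27.5% lower. Median log2 changes of the targets were 0.90, 2.48 and 1.61 in that order. Cycs, cytochrome c, gave 52.5 and 53.6 CPM at day 0, 360 and 324 CPM at day 2, and 1433 and 1174 CPM at day 6, a 24.6-fold rise by day 6. Alas1, the first enzyme of heme synthesis, was 5.92-fold higher at day 2 and 18.0-fold higher at day 6 than at day 0. Sdhb, the iron-sulfur subunit of complex II, and Ndufs8, of complex I, were 4.29-fold and 3.98-fold higher at day 6 than at day 2.

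The exceptions were import genes. Tomm34, a cytosolic chaperone of import, gave 20.1 and 18.8 CPM at day 0, 19.2 and 20.9 CPM at day 2, and 15.5 and 16.01 CPM at day 6. It was lower at day 6 than at day 0 (log2 change -0.31, adjusted p = 0.0181 by edgeR). Leaving out replicate 76 of day 0 or of day 6 ended that call. It was also lower at day 6 than at day 2 (log2 change -0.35, adjusted p = 0.0116 by edgeR). Tomm20, an import receptor, was higher at day 2 than at day 0 by 2.01-fold and lower at day 6 than at day 2 (log2 change -0.36, adjusted p = 0.00440 by edgeR). Without replicate 77 of day 2, 1 target in place of 2 was lower at day 6 than at day 2. The receptor Tomm70a rose 2.31-fold by day 2.

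Many genes shared the early and lasting rise. Of 9199 other tested genes with a mean of at least 10 CPM, 12.6% had a Pearson's r above 0.9 with Tfam over the 6 libraries (log2 CPM), and 12.1% had one with Polrmt. These r values describe 3 days with 2 libraries each and carry no test. The 5 closest to Tfam were Ythdf3 (r = 0.999), Emc7 (0.999), Rhbdl3 (0.998), Zhx1 (0.997) and Psma4 (0.997), whose log2 changes at day 2 against day 0 ran between 0.28 and 1.76. The 5 closest to Polrmt were Tnpo3 (0.999), Cdc25a (0.999), Fbxl6 (0.998), Wdr18 (0.997) and Map2k3 (0.997). Gabpa, with its later rise, was followed most closely by Ralgapa1 (0.999), Mtfr1 (0.998), Ppm1b (0.998), Cyb5d1 (0.996) and Thoc6 (0.996).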

How the data were processed

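The deposited table holds raw counts per gene, 1 column for each of the 6 libraries. The submitters' processing notes name TopHat2 2.0.13, HTSeq 0.9.1 and the builds mm10 and GRCm38. The sources used here give neither annotation nor strand setting. The headers read RPKM, yet every deposited value is a whole-number count, and the 5 summary lines of HTSeq were left out of library sizes and of every test. They hold 2.62% to 3.23% of alignments as outside features, 4.40% to 4.91% as ambiguous and 4.16% to 9.05% as not unique.

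Genes were tested with edgeR 4.0.16 (R 4.3.3): TMM scaling, filterByExpr (14459 genes kept), 1 mean per day over all 6 libraries, 3 residual degrees of freedom, quasi-likelihood F tests and p adjusted by Benjamini-Hochberg over those genes, called below 0.05. Standard errors come from the fitted change and its F statistic. The steps were tested on simulated counts. Of built-in 1.5-fold changes, 63.6% were recovered for day 2 against day 0 and 57.6% for day 6 against day 0. Of the calls, 5.39% and 1.89% were false. Changes of this size can therefore go uncalled. Alternatives were the size factors and the Wald test of DESeq2 1.42.0, library totals, no filter, each library left out, and a replicate block. The numbers 76 and 77 were checked for pairing: same-numbered libraries' deviations from day means correlated across genes with Pearson's r of 0.109, 0.112 and 0.213 for the 3 pairs of days, all above 0.1 (Spearman's rho 0.0589, 0.0546 and 0.176). By that measure the numbers were treated as possible pairs. The reported fit has no block, and a fit with a block was run as an alternative and compared with it. Replicates spread beyond counting noise (chi-square per degree of freedom 6.75, 7.53 and 26.3).

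The 10 genes and the lists were chosen with earlier results of these data known. Named list genes are, per comparison and direction, up to 3 called genes with the lowest p, and the whole coactivator list. Genes like Tfam, Polrmt and Gabpa are the 5 with the highest r.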

Additional observations from a re-analysis of the deposited data

Results flagged for a closer look

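Reads with several alignments, left uncounted by HTSeq, which enter none of the comparisons, made up 6.43% of counted alignments on average at day 2 and 8.28% at day 6, above both libraries of day 0, whose mean was 4.29%. The part of these alignments in the values of the 10 genes was not tested.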

How the results depend on the processing

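Of 30 changes of the 10 genes (10 genes in 3 comparisons) 19 were called, and 16 of these kept their direction and their call in all 11 alternatives. The exceptions, Tfb2m and Gabpa at day 6 against day 2 and Ssbp1 at day 6 against day 0, are given with their results. The replicate block changed no call among the 30: it gave 6 higher at day 2 than at day 0, and 7 higher and 2 lower at day 6 than at day 0. With library totals 0 factors were higher and 7 lower at day 6 than at day 2. Library totals also gave, for that comparison, 2 higher among the other DNA maintenance genes, 12 higher and 4 lower among mitochondrial RNA genes, and 4 lower among partners and coactivators. For day 6 against day 0 they gave 6 higher maintenance genes, and for day 2 against day 0 1 lower maintenance gene and 0 lower mitochondrial RNA genes, as did DESeq2 (1 and 0). Without a filter 1 coactivator was lower at day 6 than at day 0. Leaving out each library gave 1 to 2 factors higher at day 6 than at day 2. It gave 1 to 3 maintenance genes lower at day 2 than at day 0, 1 to 4 lower at day 6 than at day 0, and 0 to 1 mitochondrial RNA genes lower at day 2 than at day 0 or at day 6 than at day 2. For coactivators it gave 0 to 1 lower at day 2 and 1 to 2 lower at day 6 than at day 0. For NRF1 and GABP targets it gave 0 to 1 lower at day 6 than at day 0 and 1 to 2 lower at day 6 than at day 2.

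Signs turned for 6 of the 30 changes, all but 1 of them between day 6 and day 2, and 1 of them, Gabpa, was called with TMM. With library totals these became -0.31 (Tfam), -0.039 (Tfb1m), -0.23 (Polg), -0.32 (Polrmt) and -0.014 (Gabpa). The size factors of DESeq2 in edgeR gave -0.025 (Tfam) and -0.029 (Polrmt), and DESeq2 itself gave -0.025 and -0.029. Leaving out each library gave ranges of -0.092 to 0.10 (Tfam), -0.013 to 0.18 (Polg) and -0.097 to 0.15 (Polrmt), and of -0.0088 to 0.21 for Gabpb1 at day 2 against day 0. Without replicate 77 of day 0 the median of all genes tested also shifted, by -0.14 for day 6 against day 2. The cause was not tested. Depth limits Tfb1m and Polg2 most, at 59 to 187 counts per library.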
